A study of Mus musculus with 6 samples.

Results

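The chromatin map of TNFα-treated organoids consisted of 2 of the 6 libraries of the study, the H3K4me3 and the H3K27me3 ChIP of wt+TNFα, and the promoters under each mark were set side by side within these organoids. The organoids were grown from the colon of C57BL/6 mice, had the wt genotype, and were either left untreated (wt) or cultured with TNFα at 40 ng/ml for 3 weeks (wt+TNFα). Each condition had 1 input, 1 H3K4me3 and 1 H3K27me3 library, and the labels give no animal or culture number. The members were the autosomal peaks of both wt+TNFα lists, 11565 H3K4me3 and 48962 H3K27me3 peaks, or 60527 of the 114580 peaks in the 4 lists of the series. A promoter was every base within 1000 bp of a GENCODE transcript start, and a gene had a mark when at least 1 bp of a peak lay in any of its promoters. With 1 library per mark there is no replicate check, so every value is a description of these 2 libraries and none carries a test. The labels give sequencing targets of 40000000 reads for H3K4me3 and 60000000 for H3K27me3. The read totals that the study states exceed these targets for both libraries, and the peak lists themselves give no total. A gene with no listed peak may have had signal below the caller's threshold at that depth, or may lie in sequence that was filtered out. The lists do not tell these apart.

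H3K4me3 is laid down by Trithorax-group methyltransferases at the starts of genes that are transcribed or ready to be. H3K27me3 is the product of Polycomb repressive complex 2 and covers genes kept silent, often as broad domains over the regulators of other lineages. Promoters with both marks are called bivalent and are best known from embryonic stem cells, where they mark developmental genes. A ChIP on a mixed culture cannot tell whether both marks lay on the same nucleosome, on different alleles or in different cells of the organoids.

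Of 51229 autosomal genes, 11724 had H3K4me3 only (22.9%), 9343 had H3K27me3 only (18.2%), 1627 had both (3.18%) and 28535 had neither (55.7%). Among the 20807 protein-coding genes, to which the gene counts below refer unless another set is named, H3K4me3 alone marked 9541 (45.9%), H3K27me3 alone 4326 (20.8%), both marks 1394 (6.7%) and neither 5546 (26.7%). These percentages are the background against which each gene list is read. Each mark was less frequent at genes with the other mark than over all protein-coding genes. Of the protein-coding genes with H3K4me3, 12.7% also had H3K27me3, against 27.5% of all. Of those with H3K27me3, 24.4% also had H3K4me3, against 52.6% of all. Over the 125895 distinct transcript starts of all gene types, 40123 promoters had H3K4me3 only, 20344 had H3K27me3 only, 3202 had both and 62226 had neither.

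A few promoters show what the states look like as sequence. The 300-bp windows below run from 250 bases before the RefSeq start to 50 bases from it on, in GRCm38.p6 coordinates, with every CG dinucleotide in capitals. The genes were chosen after their values were seen, to set a CpG-rich and a CpG-poor promoter of the same mark side by side and to show the differing starts of Cdkn2a.
Cdx2 (H3K4me3 only), chr5:147307200-147307499, - strand: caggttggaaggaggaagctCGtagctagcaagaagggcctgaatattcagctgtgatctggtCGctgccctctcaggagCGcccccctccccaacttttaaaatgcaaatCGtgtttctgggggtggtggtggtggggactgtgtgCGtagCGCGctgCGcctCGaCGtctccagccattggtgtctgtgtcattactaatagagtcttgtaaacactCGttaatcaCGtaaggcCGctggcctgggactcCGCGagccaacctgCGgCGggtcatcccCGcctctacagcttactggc
Vil1 (H3K4me3 only), chr1:74409134-74409433, + strand: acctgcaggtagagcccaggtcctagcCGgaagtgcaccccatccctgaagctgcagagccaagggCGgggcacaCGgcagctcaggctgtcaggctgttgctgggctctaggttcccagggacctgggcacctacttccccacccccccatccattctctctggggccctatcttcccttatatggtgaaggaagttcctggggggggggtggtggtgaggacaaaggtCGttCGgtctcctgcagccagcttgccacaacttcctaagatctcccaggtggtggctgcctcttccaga
Sox12 (both), chr2:152397997-152398296, - strand: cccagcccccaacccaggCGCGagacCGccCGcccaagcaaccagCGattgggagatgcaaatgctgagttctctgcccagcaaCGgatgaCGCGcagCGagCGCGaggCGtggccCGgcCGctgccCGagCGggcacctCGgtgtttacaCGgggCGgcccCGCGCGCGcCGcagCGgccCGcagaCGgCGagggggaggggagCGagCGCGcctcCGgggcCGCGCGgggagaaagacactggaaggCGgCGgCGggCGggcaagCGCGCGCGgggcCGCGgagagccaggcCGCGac
Cdkn2a, upstream start (both), chr4:89294570-89294869, - strand: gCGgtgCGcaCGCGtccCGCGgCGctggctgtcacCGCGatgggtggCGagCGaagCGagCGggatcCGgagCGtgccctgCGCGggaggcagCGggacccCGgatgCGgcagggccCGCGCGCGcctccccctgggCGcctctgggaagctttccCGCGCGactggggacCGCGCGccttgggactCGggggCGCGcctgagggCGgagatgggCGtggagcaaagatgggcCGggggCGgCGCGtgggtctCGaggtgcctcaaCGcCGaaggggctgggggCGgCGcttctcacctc
Cdkn2a, downstream start (H3K27me3 only), chr4:89282143-89282442, - strand: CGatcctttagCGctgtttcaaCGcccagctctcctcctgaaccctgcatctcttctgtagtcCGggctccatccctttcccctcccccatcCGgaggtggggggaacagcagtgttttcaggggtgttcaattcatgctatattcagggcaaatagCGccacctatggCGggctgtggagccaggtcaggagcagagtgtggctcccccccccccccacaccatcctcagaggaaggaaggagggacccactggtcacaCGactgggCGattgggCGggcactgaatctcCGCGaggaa
Pax6 (H3K27me3 only), chr2:105668646-105668945, + strand: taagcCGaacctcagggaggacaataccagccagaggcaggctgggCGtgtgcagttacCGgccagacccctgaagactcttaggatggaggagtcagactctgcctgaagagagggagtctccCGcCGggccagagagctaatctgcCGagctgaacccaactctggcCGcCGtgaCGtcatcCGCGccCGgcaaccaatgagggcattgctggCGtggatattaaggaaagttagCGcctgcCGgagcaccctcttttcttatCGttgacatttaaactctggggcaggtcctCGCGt
Cd3e (H3K27me3 only), chr9:45009562-45009861, - strand: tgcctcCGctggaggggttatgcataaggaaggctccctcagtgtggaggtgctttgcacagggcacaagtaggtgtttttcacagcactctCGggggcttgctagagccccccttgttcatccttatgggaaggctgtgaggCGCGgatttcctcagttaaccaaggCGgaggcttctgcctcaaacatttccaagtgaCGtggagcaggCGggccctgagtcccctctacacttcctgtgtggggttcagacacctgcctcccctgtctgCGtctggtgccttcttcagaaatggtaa
Fabp2 (neither), chr3:122894822-122895121, + strand: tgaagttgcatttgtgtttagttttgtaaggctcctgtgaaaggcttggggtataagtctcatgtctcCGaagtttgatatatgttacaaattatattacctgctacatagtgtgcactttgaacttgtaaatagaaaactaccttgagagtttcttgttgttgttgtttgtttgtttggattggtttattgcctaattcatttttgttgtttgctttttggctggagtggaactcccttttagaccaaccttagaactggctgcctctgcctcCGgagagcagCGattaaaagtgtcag

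The Cdx2 window lay under H3K4me3 over 245 of its 300 bases and held 18 CG. Cdx2 is the transcription factor that specifies the intestine. Vil1, which encodes the brush-border protein villin, was under H3K4me3 over all 300 bases with only 5 CG. The Sox12 window lay wholly under both marks and held 47 CG. The windows at the Cdkn2a starts, which feed different first exons and so different tumour suppressors, p19Arf upstream and p16Ink4a downstream, held 45 and 12 CG. The upstream window was under both marks and the downstream one under H3K27me3 alone. Pax6, a regulator of eye, brain and endocrine cells, and Cd3e, a chain of the T cell receptor complex, both lay wholly under H3K27me3 with 18 and 8 CG. Fabp2, a fatty acid binding protein of absorptive cells, had 3 CG and neither mark.

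Genes of intestinal epithelial identity carried H3K4me3 and no H3K27me3. Of 17 listed genes, 16 had H3K4me3 only and 1, Krt20, had neither mark, against 45.9% of all protein-coding genes with H3K4me3 only. Their H3K4me3 peaks had a median widest width of 4308 bp and a median fold over input of 37.6. Cdx1 (57.6-fold over input, 4580 bp), Cdx2 (50.2-fold, 4265 bp) and the epithelial adhesion gene Epcam (57.7-fold, 4003 bp) stood near the top of the list. The lowest was Hnf4g, a nuclear receptor of enterocytes, at 15.1-fold. In wt all 17 had H3K4me3 only. The labelled tissue thus had the mark of active starts at its defining genes in both conditions, apart from Krt20, a keratin of mature surface cells, whose H3K4me3 peak was listed in wt and not in wt+TNFα.

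Markers of cells that an epithelial organoid should lack showed the opposite pattern. The lists held 53 marker genes of fibroblasts, smooth muscle, endothelium, immune cells and enteric neurons and glia. None had H3K4me3 only, and 36 (67.9%) had H3K27me3 only, against 45.9% and 20.8% of all protein-coding genes. Both marks were found at 1, and neither at 16 (30.2%), a share near the 26.7% of all protein-coding genes. The 1 gene with both was Ret, the receptor tyrosine kinase of enteric neurons, with an H3K4me3 peak of 513 bp at 8.43-fold inside an H3K27me3 peak of 21712 bp. Among fibroblast genes, the promoters of Col1a1, Pdgfra, Vim, Thy1, Twist1 and Twist2 were covered in full by H3K27me3, in peaks of 23925 to 42304 bp. Cd3e, Csf1r, Cd4, Lyz2 and Spi1 of the immune list were likewise covered in full. Ptprc, Col3a1, Pdgfrb, Vwf and Acta2 were among those with neither mark. H3K27me3 peaks with a −log10 q of at least 2 were found for 33 of these 37 genes with the mark.

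Within the epithelium, the lists of the separate lineages differed. Stem cell and Wnt feedback genes were split: Axin2, Sox9, Ephb2, Ephb3, Rnf43, Znrf3, Cd44, Myc, Lrig1, Prom1 and Slc12a2 had H3K4me3 only, 11 of 17, whereas Lgr5, Olfm4, Smoc2, Nkd1 and Notum had H3K27me3 only. Lgr5, the R-spondin receptor of crypt base stem cells, had no H3K4me3 peak, and its H3K27me3 peak of 14653 bp at 3.13-fold covered 36.4% of its promoters. Lgr5, Smoc2 and Notum had H3K27me3 only in wt too, while Nkd1 had both marks there and Olfm4 neither. Ascl2, the master regulator of the crypt stem cell state, had both marks, with an H3K4me3 peak of 2011 bp at 11-fold that met a weak H3K27me3 peak (1.78-fold, −log10 q 0.958) over 95 bp.

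Secretory lineages were mostly under H3K27me3 or unmarked. No enteroendocrine gene of 15 had H3K4me3 only, 11 had H3K27me3 only, and 3 had neither. The promoters of Neurog3, Neurod1, Pax4, Pax6 and Nkx2-2, transcription factors that make endocrine cells, were covered in full. Insm1, which acts with them, was the 1 gene of the list with both, through an H3K4me3 peak of 779 bp at 3.26-fold, the lowest fold in the H3K4me3 list, within an H3K27me3 peak of 54127 bp. Of 14 tuft cell genes, 8 had H3K27me3 only, with Pou2f3, the tuft cell master regulator, under a peak of 70083 bp. Only Ltc4s, a leukotriene synthase, had H3K4me3 alone.

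Goblet cell genes were spread over all states. Foxa3 (60.4-fold, 4080 bp) and Agr2 (10.7-fold) had H3K4me3 only. Atoh1, the transcription factor that starts the secretory programme, had both marks with 885 bp of overlap, from an H3K4me3 peak of 2895 bp at 20.4-fold and an H3K27me3 peak of 6353 bp. Creb3l1 had both as well, with its whole H3K4me3 peak of 1123 bp inside H3K27me3. Muc2, the gel-forming mucin of the colon, had H3K27me3 over 28.6% of its promoters and no H3K4me3. Among 14 absorptive colonocyte genes, 7 had H3K4me3 only, a share near the 45.9% of all protein-coding genes, and 3 did where the transcript start itself had to lie under the mark. The 7 were led by the carbonic anhydrase Car2 (37.6-fold, 8228 bp), and Car4, Aqp8 and Slc5a8 had H3K27me3 only. Aqp8, a water channel, and Slc5a8, a butyrate transporter, had H3K4me3 only in wt. Car1, Guca2a, Guca2b and Ceacam20 had H3K4me3 only in wt+TNFα and neither mark in wt, with folds of 4.60 to 7.87.

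**Figure D1:**
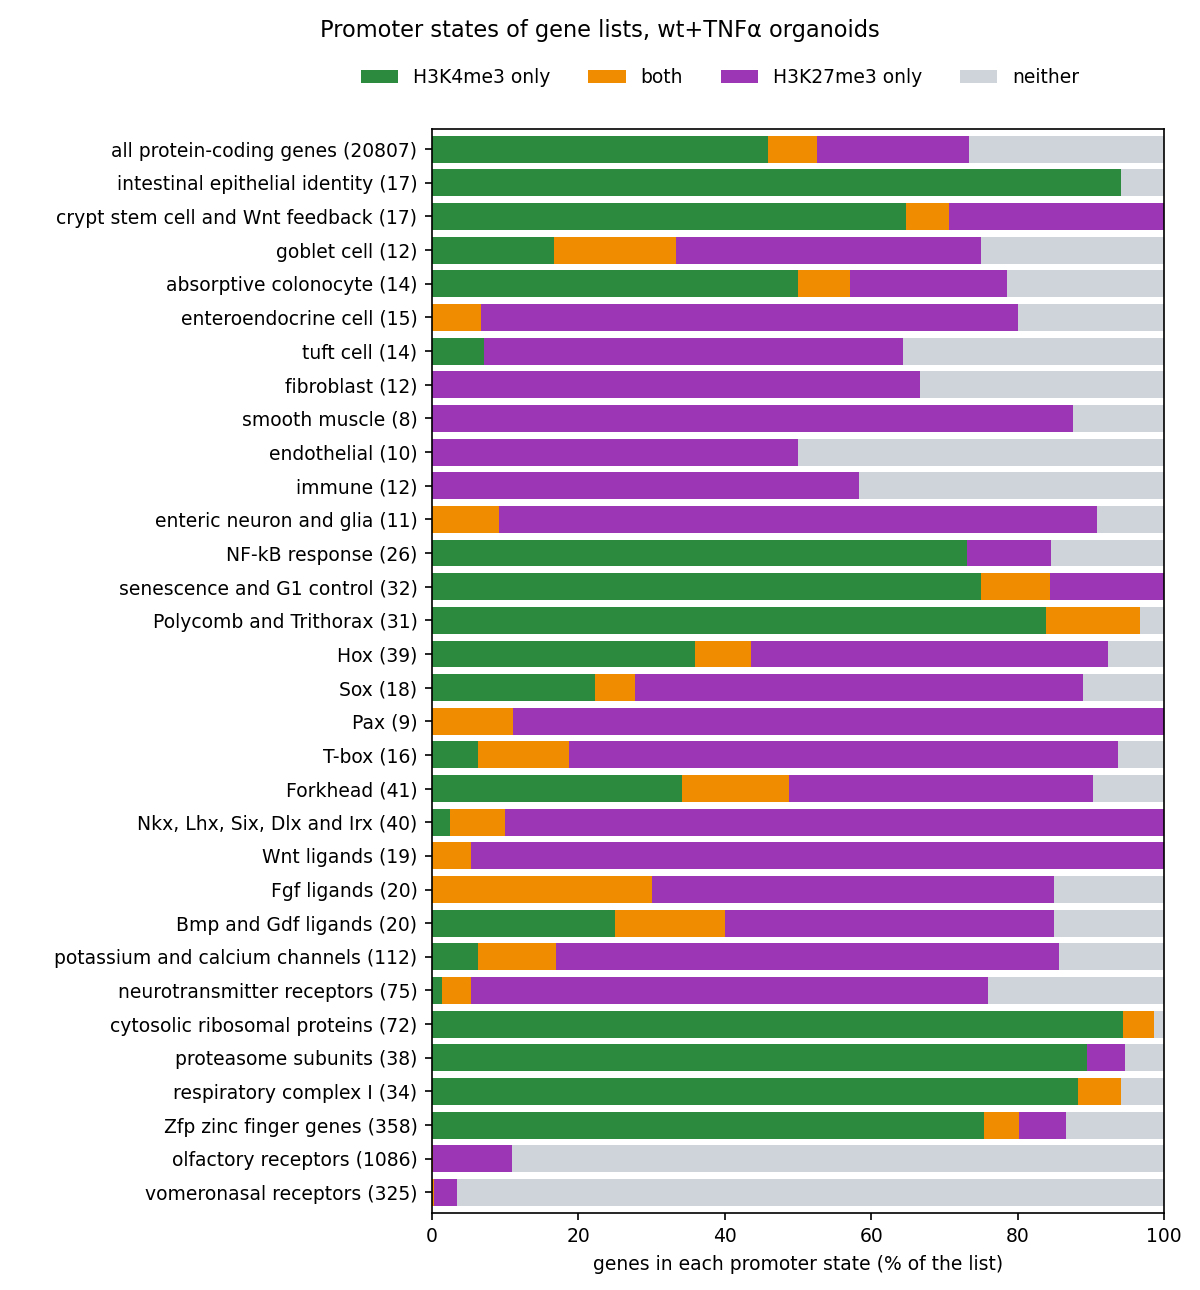
Promoter states of gene lists in wt+TNFα organoids. Each bar is 1 list with its number of autosomal protein-coding genes in parentheses, and the x axis gives the percent of the list in each state. Epithelial identity and shared machinery are almost wholly H3K4me3 only, 16 of 17 and 164 of 176 genes, while the Wnt ligands (18 of 19), the Nkx, Lhx, Dlx and Irx genes with the sine oculis homologues (36 of 40) and the markers of other cell types as 1 group (36 of 53) are mostly H3K27me3 only.

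Genes that respond to NF-κB, the transcription factor that TNFα activates, had H3K4me3 only in 19 of 26 cases, H3K27me3 only in 3 and neither mark in 4. Tnfaip3, the deubiquitinase A20 that limits the pathway, had an H3K4me3 peak of 9484 bp at 51.3-fold, among the 5 widest at H3K4me3-only genes. Nfkbiz had one of 7001 bp and the inducible nitric oxide synthase Nos2 one of 5352 bp. Nos2 and the adhesion receptor gene Icam1 had H3K27me3 only in wt, and the chemokine genes Cxcl2 and Ccl20 had neither. In wt+TNFα these 4 had H3K4me3 only, at 21.4-, 11.2-, 6.93- and 10.1-fold. Csf1 went from both marks in wt to H3K4me3 only. Tnfaip2, Traf1 and Il1b had H3K27me3 only, and Il1b, at 1.93-fold, had neither mark in wt. Ccl2, Lcn2, Saa3 and Il6 had neither mark.

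Of 32 genes of senescence and the G1 checkpoint, 24 had H3K4me3 only, 5 H3K27me3 only and 3 both. The cyclin-dependent kinase inhibitors Cdkn1a and Cdkn2c each had a peak of 50.6-fold, and Cdkn2b, the neighbour of Cdkn2a, had 2203 bp of H3K4me3 at 37.3-fold without H3K27me3. Cdkn2a had both. At its upstream start, chr4 position 89294653 on the minus strand, H3K4me3 covered 68.3% and H3K27me3 61.4% of the promoter, and the marks overlapped over 593 bp. At its downstream start, position 89282192, H3K27me3 covered the whole promoter and H3K4me3 none. The H3K4me3 peak was strong (1538 bp, 34.5-fold) and the H3K27me3 peak was 25291 bp wide at 4.84-fold. Tgfb2, a ligand of the TGF-β family, had a short H3K4me3 peak of 583 bp at 5.88-fold inside a 9363-bp H3K27me3 peak, and in wt it had H3K27me3 only. At Mapk12 the marks lay in different promoters: H3K4me3 covered 39.0% of each of its 3 upstream promoters, and H3K27me3 19.9 to 62.9% of 3 internal ones. Cdkn1c, Igfbp3, Igfbp5 and Igfbp7 had H3K27me3 over their promoters in full.

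**Figure D2:**
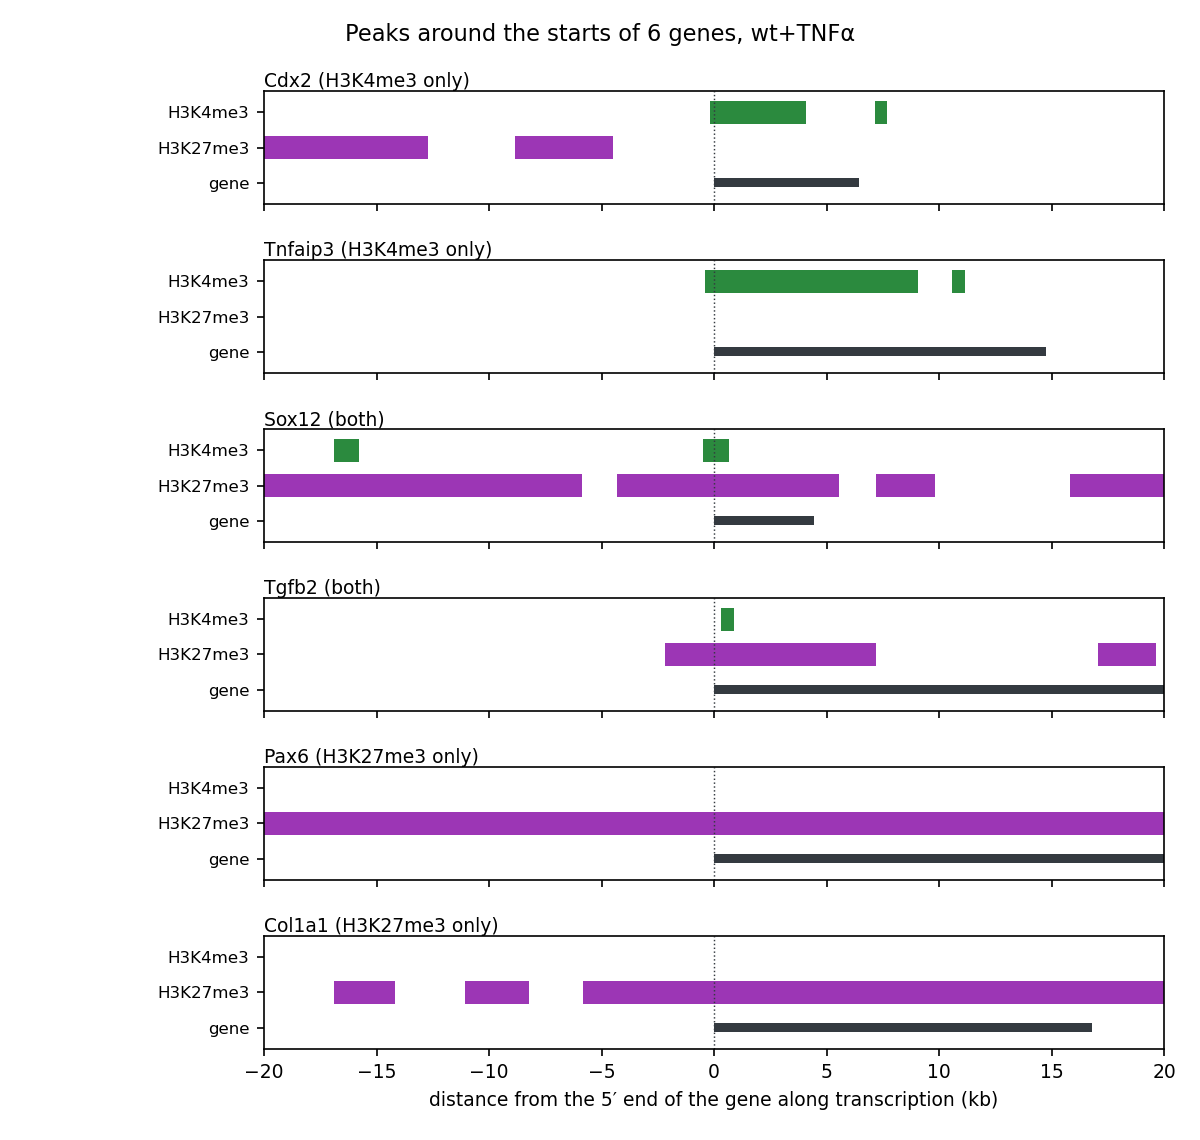
Peaks around the 5′ ends of 6 genes in wt+TNFα. The x axis is distance from the gene's 5′ end along transcription, in kb, cut at 20 kb on each side. Green bars are H3K4me3 peaks, purple bars H3K27me3 peaks and the thin dark bar the gene. Tnfaip3 carries a 9484-bp and a shorter H3K4me3 peak and no H3K27me3, the H3K4me3 peaks of Sox12 and Tgfb2 lie inside H3K27me3 peaks, and Pax6 and Col1a1 carry H3K27me3 across the start.

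The machinery that writes and reads these marks was itself under H3K4me3. Of 31 Polycomb and Trithorax genes, 26 had H3K4me3 only, among them Ezh2, Eed and Suz12 of Polycomb repressive complex 2 and Kmt2a to Kmt2d. The methyltransferase gene Setd1b had a peak of 8735 bp. Bmi1, Cbx2, Cbx7 and Cbx8, all subunits of Polycomb repressive complex 1, had both marks. The H3K27me3 peak at Cbx8 was the strongest of these, 15655 bp at 6.32-fold beside H3K4me3 at 28.1-fold, and the marks shared 402 bp. At Bmi1 the shared stretch was 1050 bp. At Cbx7 the peaks did not overlap. Phf19 had neither mark. Each of the 31 genes had the same state in wt.

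Shared cellular machinery had H3K4me3 only in 164 of 176 genes (93.2%). This held for all 12 RNA polymerase II subunits and all 20 cytosolic aminoacyl-tRNA synthetases, for 68 of 72 cytosolic ribosomal protein genes, 34 of 38 proteasome subunits and 30 of 34 subunits of respiratory complex I. The exceptions were few. Rpl3, Rpl26, Rpl38 and Ndufa8 were among the genes with both marks, and of the 3 ribosomal genes 1 had peaks that overlapped each other. Psma8 and Psmb11, the testis and thymus forms of proteasome subunits, had H3K27me3 only. Rps9, Ndufa3, Psma7, Psmc5 and Ndufa6 had neither mark, and the first 2 of these lie in stretches of at least 1.5 Mb in which no peak is listed in any of the 4 lists. Such stretches covered 526 Mb and held 1233 protein-coding genes, 22.2% of those with neither mark.

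Developmental transcription factors had the reverse pattern. Of 168 genes of the Hox, Sox, Pax, T-box, Forkhead, Gata, Nkx, Lhx, Dlx and Irx families and the sine oculis homologues, 106 (63.1%) had H3K27me3 only, 35 (20.8%) H3K4me3 only, 17 (10.1%) both and 10 neither. Of the 40 Nkx, Lhx, Dlx and Irx genes and sine oculis homologues, 36 had H3K27me3 only and 3 both, and 37 of those 39 had every promoter under the mark in full. The remaining gene, Six5, had H3K4me3 only. Their H3K27me3 peaks had a median widest width of 34968 bp and a median fold of 4.28. Of 9 Pax genes 8 had H3K27me3 only, up to 137683 bp at Pax2. Pax8, the remaining one, had H3K4me3 (419 bp, 5.82-fold) at an internal start and H3K27me3 at its upstream starts. T-box genes had H3K27me3 only in 12 of 16 cases, and Eomes and Tbx1 had both.

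Families with members that act in the gut were divided. Of 41 Forkhead genes, 14 had H3K4me3 only, 17 H3K27me3 only and 6 both. Foxa1 (39.9-fold, 7484 bp) and Foxa2 (28.5-fold, 3614 bp), pioneer factors of gut endoderm, belonged to the first of these, as did the cell cycle regulator Foxm1. Foxc2, Foxf1 and Foxl1, which act in mesenchyme, belonged to the second, while Foxd2 belonged to the first. Foxc1, Foxe3, Foxj1, Foxn3, Foxo6 and Foxp2 had both. Of 18 Sox genes, Sox4, Sox9, Sox13 and Sox21 had H3K4me3 only and 11 had H3K27me3 only. Among the 11 were Sox1, Sox2 and Sox10, factors of the nervous system, and the endothelial factors Sox7 and Sox18. Sox17, which is on the endothelial list, and Sox15 had neither mark, and Sox12 had both. Of the 5 Gata genes, Gata6 had H3K4me3 over 9178 bp at 42.0-fold, Gata2, Gata4 and Gata5 had H3K27me3 only, and Gata3 had both, at an internal start where 1161 bp carried the 2 marks together. Gata4 had both marks in wt.

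The 4 Hox clusters, whose genes specify position along the body axis, each had their own pattern. In Hoxa, 10 of 11 genes had H3K4me3 only and Hoxa2 had neither mark. Hoxa13 had 11363 bp of H3K4me3 at 49.8-fold, and Hoxa9 and Hoxa10 shared a peak of 7080 bp. In Hoxc, all 9 genes had H3K27me3 only, under a single peak of 397309 bp at chr15:102728407-103125715, the widest of the list, which no H3K4me3 peak overlapped. In Hoxd, a 141428-bp H3K27me3 peak at chr2:74673697-74815124 held Hoxd1, Hoxd3, Hoxd4, Hoxd8, Hoxd10 and Hoxd12 with H3K27me3 only. Inside the same peak Hoxd9 and Hoxd11 had H3K4me3 as well, in short peaks of 857 bp at 5.40-fold and 740 bp at 4.70-fold. Hoxd13, beside it, had H3K4me3 only, over 7280 bp at 38.5-fold, and had both marks in wt. In Hoxb, Hoxb13, Hoxb9 and Hoxb6 had H3K4me3 only, Hoxb7 both, Hoxb1, Hoxb2, Hoxb4 and Hoxb8 H3K27me3 only, and Hoxb3 and Hoxb5 neither. Hoxb3, Hoxb5, Hoxb6, Hoxb7, Hoxd9 and Hoxd11 had H3K27me3 only in wt.

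Secreted ligands resembled the transcription factor families, with 38 of 59 (64.4%) under H3K27me3 only and 10 (16.9%) under both. None of the 19 Wnt ligand genes had H3K4me3 only, and 18 had H3K27me3 only, from Wnt8a at 1.87-fold to Wnt1 at 5.19-fold. Wnt7b had both, in that 720 bp of H3K4me3 at 4.25-fold lay inside 24737 bp of H3K27me3, and it had H3K27me3 only in wt. Fgf ligands held the largest share of both marks among the 3 ligand lists, 6 of 20: Fgf1, Fgf9, Fgf11, Fgf15, Fgf18 and Fgf20. Fgf15, the ileal hormone that restrains bile acid synthesis, had 904 bp under both marks. In the Bmp and Gdf list, Bmp2 (31.0-fold, 3459 bp) and Gdf15, a stress-induced cytokine, had H3K4me3 only, Bmp4, Bmp6 and Bmp7 H3K27me3 only, and Bmp1, Bmp8a and Gdf11 both.

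Genes of excitable cells were largely under H3K27me3. Of 112 potassium and calcium channel genes, 77 had H3K27me3 only, 12 both and 7 H3K4me3 only. The last were Cacnb3, Kcnf1, Kcnk1, Kcnk5, Kcnk6, Kcnn4 and Kcnq1, of which Kcnn4 and Kcnq1 encode potassium channels of secretory epithelia. Of 75 neurotransmitter receptor genes, 53 had H3K27me3 only, and Htr4, a serotonin receptor, was the 1 gene with H3K4me3 only.

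The chemosensory receptor genes were mostly unmarked. Of 1086 olfactory receptor genes 968 (89.1%) had neither mark, and of 325 vomeronasal receptor genes 314 (96.6%), against 26.7% of all protein-coding genes. Neither mark was listed at 43 of 56 clustered protocadherins, 30 of 42 β-defensins and 37 of 57 keratin-associated proteins of hair. The other 12 β-defensins (28.6%) and 20 keratin-associated proteins (35.1%) had H3K27me3 only, against 20.8% of all protein-coding genes. With H3K27me3 peaks of −log10 q of at least 2 these counts fell to 3 of 42 and 12 of 57. The higher shares thus rested in part on weaker peaks. Whether either list exceeds all protein-coding genes at that threshold was not tested. Of the olfactory receptor genes 117 had H3K27me3 only. The peaks of the 118 with the mark had a median widest width of 4198.5 bp and a median fold of 1.92, and the count of genes with H3K27me3 only fell to 32 with H3K27me3 peaks of −log10 q of at least 2. Of the olfactory and vomeronasal receptor genes, 521 lay in the stretches without any listed peak. Of the 358 Zfp zinc finger genes, 270 had H3K4me3 only, 23 H3K27me3 only and 48 neither mark.

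Peak shape separated the states further. At genes with H3K4me3 only, the widest promoter peak had a median of 1772 bp (interquartile range 1330 to 2321 bp) and a median fold of 31.8. At genes with both marks it was 1072 bp (720 to 1535 bp) and 15.5-fold, at the 24.4th against the 62.0th percentile of fold within the list. H3K27me3 differed less. The widest peak had a median of 9028 bp with H3K27me3 only (3874 to 19820 bp) and 6902 bp with both (3161 to 14948 bp), and the median fold was 2.48 in each. The share of the promoters under H3K27me3 differed more, 80.5% against 36.5%. These spreads are over genes, and neighbouring genes can share a peak.

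**Figure D3:**
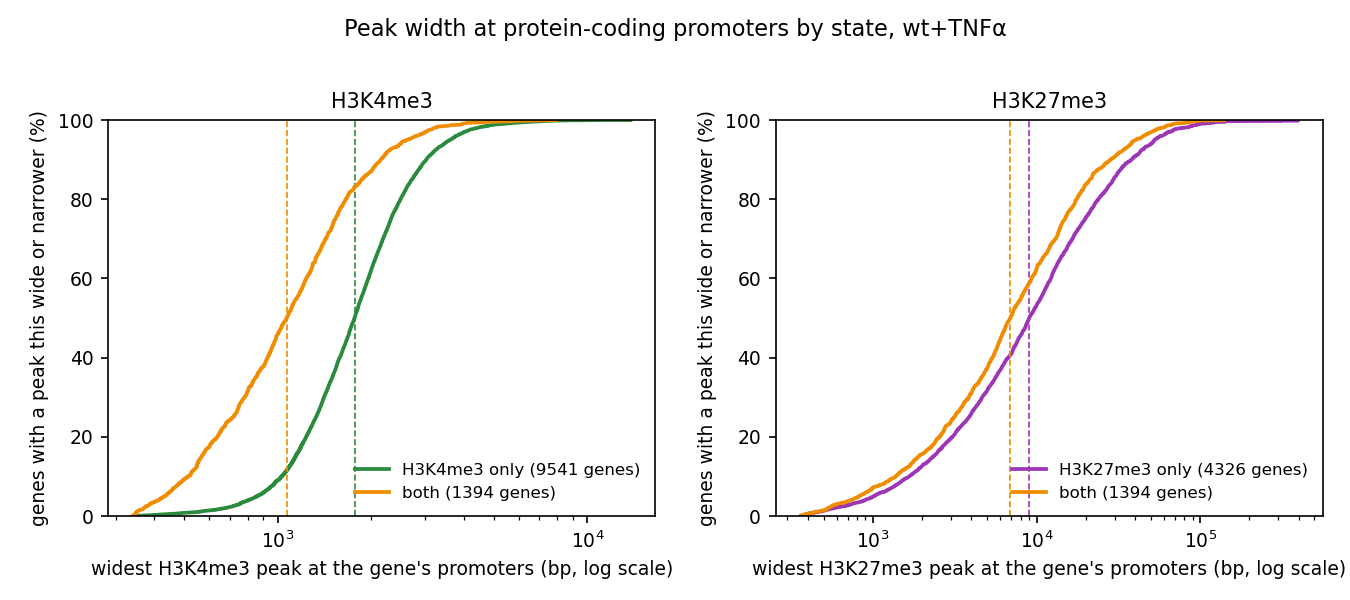
Width of the widest peak at the promoters of each protein-coding gene, by state, in wt+TNFα. The x axes are log scales in bp, the y axes give the percent of genes with a peak this wide or narrower, and dashed lines mark the medians. The curve of H3K4me3 widths at genes with both marks lies left of that at H3K4me3-only genes, with medians of 1072 and 1772 bp, while the H3K27me3 curves lie closer.

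The same was seen peak by peak. Of the 11565 H3K4me3 peaks, 921 (7.96%) overlapped H3K27me3, at medians of 829 bp and 10.6-fold, against 1570 bp and 28.8-fold for the others. For scale, H3K27me3 peaks covered 9.26% of all autosomal bases. Overlap became rarer with width, from 24.0% among the narrowest 2313 peaks (341 to 959 bp) to 1.64% among the widest 2313 (at least 2268 bp). None of the 114 H3K4me3 peaks of at least 5000 bp overlapped an H3K27me3 peak. These wide peaks marked 118 protein-coding genes, among them Tnrc18 (11369 bp), Hoxa13 (11363 bp), Klf5 (10122 bp) and Tnfaip3. Klf5 is a proliferation factor of the crypt. Of the identity list 4 of 17 genes had such a peak, of the Hox list 6 of 39 and of the NF-κB list 3 of 26, against 0.567% of all protein-coding genes.

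In most overlaps the H3K4me3 peak lay inside the H3K27me3 peak. This was so for 622 H3K4me3 peaks, with a median of 696 bp and 8.82-fold, and 291 crossed 1 edge of an H3K27me3 peak, with a median of 1175 bp and 16.7-fold. Another 109 did not overlap H3K27me3 but had it within 5 kb on both sides, 1833 had it within 5 kb on 1 side, and 8702 had none that near. The width and fold of H3K4me3 peaks with H3K27me3 on 1 side (1366 bp, 28.8-fold) were close to those of peaks with none nearby (1646 bp, 29.0-fold). Seen from the other mark and at promoters, the 868 H3K27me3 peaks that overlapped H3K4me3 had medians of 7243.5 bp and 2.64-fold, against 5584 bp and 2.08-fold for the 9089 that did not. Counted by gene the order of the widths was the reverse, 6902 bp with both marks and 9028 bp with H3K27me3 only. Only 20.3% of H3K27me3 peaks reached a promoter of any gene type, compared with 91.4% of H3K4me3 peaks.

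Of the 1394 protein-coding genes with both marks, 1102 (79.1%) had them in 1 and the same promoter, and 292 had them in different promoters alone. In 864 of the 1102 the peaks overlapped inside the promoter, by a median of 599 bp, and in 238 they lay side by side. The genes with the highest smaller percentile of the 2 folds were Wiz, Bahd1, Rgl1, Arpc5 and Tubgcp3. Bahd1, which encodes a protein of silent chromatin, had H3K4me3 at 57.5-fold and H3K27me3 at 2.68-fold with no overlap between the peaks. Rgl1 and Arpc5 start from opposite strands under 1 shared H3K4me3 peak of 2015 bp. The peaks of Wiz, Bahd1 and Tubgcp3 lay side by side, and those of Rgl1 and Arpc5 overlapped by 584 and 407 bp. Genes with both marks were also longer, with a median of 41397 bp against 23220 bp with H3K4me3 only and 18804 bp with H3K27me3 only, and had a median of 5, 5 and 3 annotated starts. A gene with more starts has more promoters in which a mark can be found.

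The reach of H3K27me3 around the start differed between the states, but the states were set over all annotated starts, so a gene with internal starts was chosen in part by its marks downstream. At genes with H3K4me3 only, 9.11% were under H3K27me3 5 kb upstream of the 5′ end and 0.629% 5 kb downstream. Among the 920 of these genes with 1 annotated start the shares were 8.70% and 2.28%, still higher upstream. At genes with H3K27me3 only they were 43.8% and 53.2%, and 48.7% and 53.7% among the 1129 with 1 start. At the 1102 genes with both marks in 1 promoter the shares were 45.7% upstream and 35.8% downstream, but among the 137 genes with both marks and 1 start they were 42.3% and 46.7%, so the order of the sides turned. Over the 1102, coverage dipped around the start, to 59.3% at 300 bp upstream compared with 72.0% at 900 bp downstream. These genes were chosen for an H3K27me3 peak anywhere within 1000 bp of a start. That rule can itself raise coverage toward the edges of the promoter. H3K4me3 at these genes peaked at 200 bp downstream of the start, where 82.3% were under it, and at 300 bp downstream in H3K4me3-only genes (93.2%). The summit of promoter H3K4me3 peaks lay a median of 183.5 bp downstream of the nearest start without H3K27me3 and 89 bp with it.

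**Figure D4:**
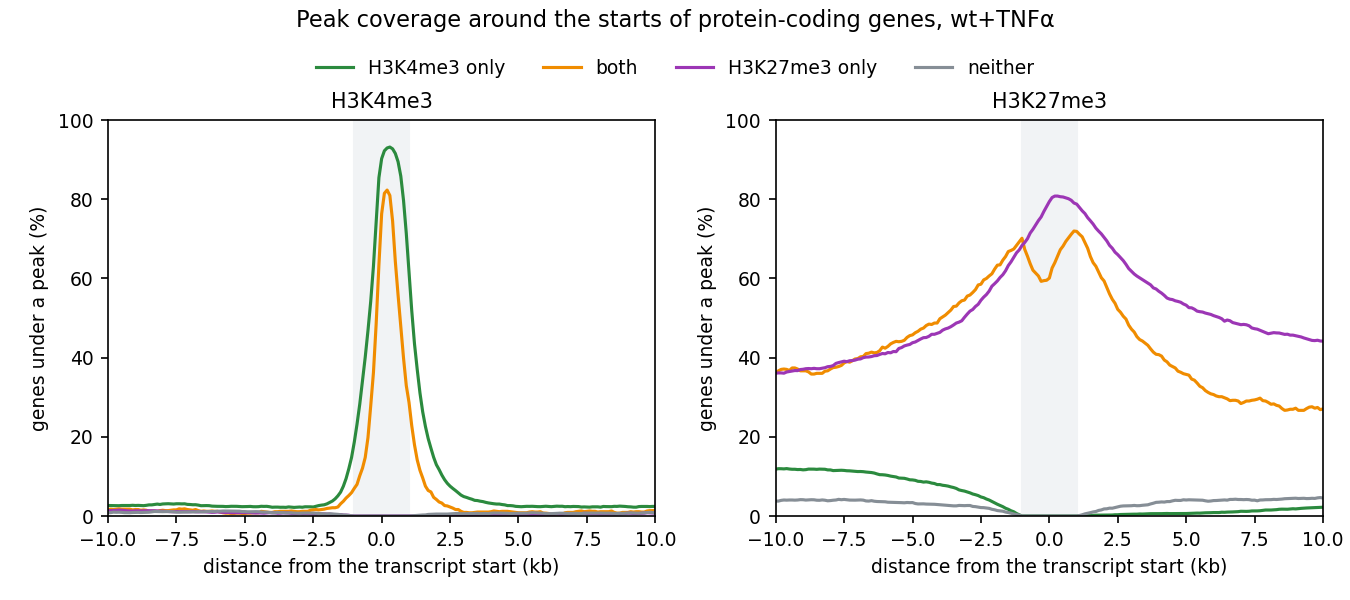
Share of protein-coding genes under a peak by distance from the start in wt+TNFα, for H3K4me3 (left) and H3K27me3 (right). The x axes run 10 kb to each side along transcription, the shaded band is the promoter that defines the states, and lines are the states. H3K27me3 dips to 59.3% near the start of genes with both marks, and at H3K4me3-only genes it is found upstream (9.11% at 5 kb) more than downstream (0.629%, or 2.28% among those with 1 annotated start).

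The 230 H3K27me3 peaks of at least 50 kb made up 7.19% of all bases under the mark, and 192 of them held a protein-coding promoter. Of the 230, 26 (11.3%) overlapped an H3K4me3 peak, against 1.84% of all H3K27me3 peaks, most of which are far shorter. All 306 protein-coding genes with a promoter in them have H3K27me3 by construction. Of these, 262 had H3K27me3 only and 44 (14.4%) both, against 24.4% with both among all protein-coding genes with H3K27me3. Members of the transcription factor lists numbered 45 (14.7%), and those lists hold 168 of the 20807 protein-coding genes. Behind Hoxc, the widest were a peak of 307702 bp at chr11:96348949-96656650 over Hoxb1, Hoxb2 and Skap1, 177291 bp over Lmx1b and 151024 bp over Uncx, both homeobox genes. The strongest H3K27me3 peaks were not the widest. Among H3K27me3-only genes the fold was highest at the acetylcholinesterase gene Ache, 6.50-fold in a peak of 3126 bp, followed by the neuronal genes Skor1, Ankrd34a, Scrt1 and Nxph4.

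For H3K4me3 the highest folds were at Serbp1 (68.9-fold, 3804 bp), Eloa, Ssbp3, Sub1 and Foxj3, which encode regulators of RNA and transcription found in most cells. At Serbp1 the wt fold was 29.6, while at Eloa it was 52.4 against 68.0. Of the same 5 genes, Serbp1 was the one in another state in wt, both marks, through an H3K27me3 peak of 1729 bp with a −log10 q of 0.556.

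The states also differed in sequence. In the 300 bases at the gene's 5′ end, read from the genome for 20802 protein-coding genes, the median ratio of observed to expected CpG was 0.77 with H3K4me3 only, 0.69 with both, 0.37 with H3K27me3 only and 0.17 with neither, and the median G+C content was 60.0, 61.7, 55.0 and 45.3%. A ratio of at least 0.6 was found in 72.9, 62.3, 28.0 and 7.88% of genes. In 5 bins of equal gene number along this ratio, the share with H3K4me3 only went from 8.87% in the lowest bin to 79.2% in the highest, and that with neither mark from 67% to 3.17%. H3K27me3 alone was most frequent in the bin from 0.167 to 0.389 (31.7%), and both marks in the bin from 0.667 to 0.856 (9.78%). The lists did not all follow their state. The identity genes, almost all under H3K4me3, had a median ratio of 0.32, and 4 in 17 reached 0.6 (23.5%), as the Vil1 window shows. The Wnt ligands, almost all under H3K27me3, had 0.74.

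**Figure D5:**
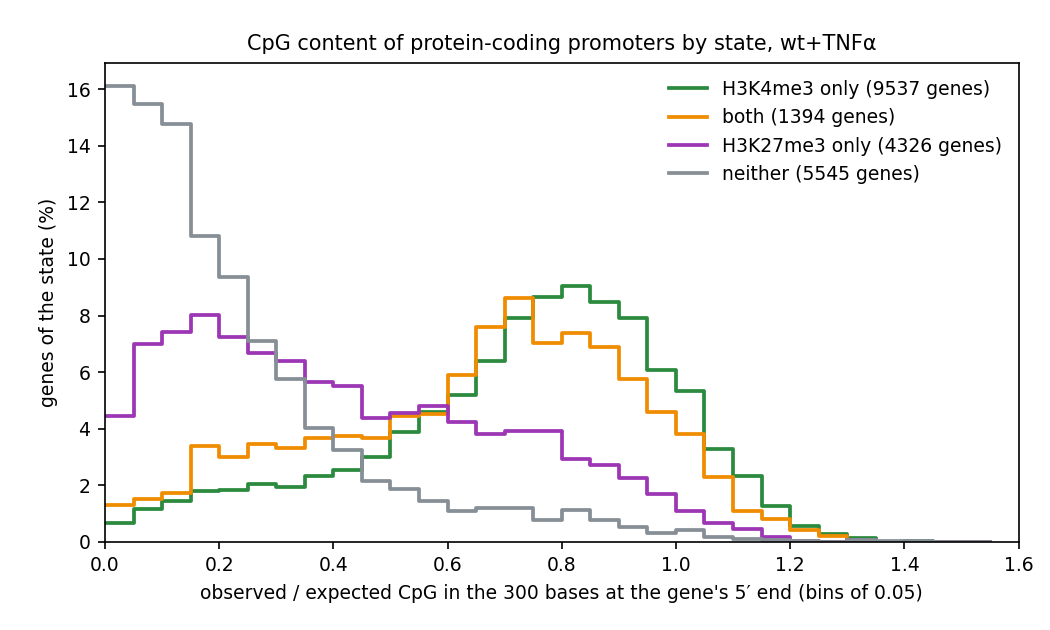
CpG content of protein-coding promoters by state in wt+TNFα. The x axis is the observed to expected CpG ratio of the 300 bases at the gene's 5′ end in bins of 0.05, the y axis the percent of the state's genes in each bin, and each line is a state. Genes with H3K4me3 only and with both marks have medians of 0.77 and 0.69, those with H3K27me3 only 0.37 and those with neither 0.17.

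Short motifs were searched on both strands of the same windows, as letters and not as binding sites. CCGGAAG, the core of ETS-type sites, was in 19.8% of windows with H3K4me3 only, 7.39% with both, 3.01% with H3K27me3 only and 3.16% with neither, against 11% of all windows. TATAAA was in 6.92, 6.46, 12.5 and 24.5%, against 12.7%. GGGCGG, which like CCGGAAG holds a CG, was in 62.5, 61.9, 36.2 and 12.7%, against 43.7%. CCAAT, which holds none, ranged only from 33.1 to 41.6%.

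Without TNFα the same rule gave 9655 protein-coding genes with H3K4me3 only, 3515 with H3K27me3 only, 1122 with both and 6515 with neither. H3K4me3 only was kept by 9271 of the 9655 genes (96.0%), and H3K27me3 only by 3222 of 3515 (91.7%). Of the 1394 genes with both marks in wt+TNFα, 896 (64.3%) had both in wt, 324 had H3K4me3 only, 160 had H3K27me3 only and 14 neither. In wt+TNFα the 324 had weaker, shorter H3K27me3 than the 896, with medians of 1.74 against 5.14 for −log10 q and 3112.5 against 8934.5 bp. It covered a median of 13.9% of their promoters, against 47.6%. The 160 had weaker, shorter H3K4me3 than the 896, with medians of 7.34- against 15.4-fold and 583 against 1072 bp. The largest single change was from neither mark to H3K27me3 only, 990 genes, of which 23.8% had a peak with −log10 q of at least 2, against 86.7% of the genes with H3K27me3 only in both conditions. The lists differ in size: that of H3K27me3 held 48962 autosomal peaks over 228 Mb in wt+TNFα and 30347 over 101 Mb in wt, and that of H3K4me3 11565 and 11233. The read totals that the study states are higher in wt+TNFα than in wt for H3K4me3 and for the input over which both marks were called, and close to each other for H3K27me3. The name of the wt+TNFα H3K27me3 list also lacks a spike-in tag that the names of the other lists carry. With 1 library per condition, the treatment, the culture and the calling of peaks cannot be told apart in these differences.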

How the data were processed

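ChIP-seq of H3K4me3 and H3K27me3 was analysed from the peak lists of colonic organoids, 1 library per mark and condition. The authors cleaned the reads (fastp), mapped them on GRCm38/mm10 (BWA 2.2), marked duplicates with SAMtools 1.11, removed blacklisted regions and called peaks over input with MACS2 2.1.0, in narrow mode for H3K4me3 and in broad mode for H3K27me3. The versions come from the submitters' processing notes. In the deposited lists each peak has a display score, a fold enrichment over input (a ratio, at the summit for narrow peaks and averaged over the region for broad ones) and −log10 p and q values, all as the authors' caller wrote them. For broad peaks the deposited −log10 q is an average over the region and can lie below the threshold of the call. Per the deposited values, 21.6% of the wt+TNFα H3K27me3 peaks reached a −log10 q of 2, which the methods state as the cutoff for this mark. The inputs have no peak list and entered only through the authors' calls.

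Peaks on the 19 autosomes were intersected with promoters (1000 bp on each side of every GENCODE M21 transcript start) in Python 3.11.15 with numpy 2.4.6. A gene's fold is that of its strongest promoter peak, and its width that of its widest. Sequence features were read from the GRCm38.p6 genome, and the printed windows are RefSeq's. The state call was tested on simulated peaks. Genes were named by rule: the 5 highest folds and the 5 widest peaks per mark, the 5 with the highest smaller percentile of both folds, and the members of 38 gene lists, of which some are not reported here. Members and lists were chosen with earlier results of these data known. With 1 library per mark no test was run. Alternatives were other promoter widths, overlap rules, gene sets and peak thresholds. The lists of wt were used for comparison only.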

Additional observations from a re-analysis of the deposited data

Results flagged for a closer look

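Chromosome X lies outside the comparisons above, and a signal stood out there. In wt+TNFα, 11578 H3K27me3 peaks were listed on chromosome X, against 247 in wt, while H3K4me3 peaks numbered 329 and 316. Of 948 protein-coding genes of chromosome X, 278 had both marks with TNFα against 12 without, and 463 against 101 had H3K27me3 only. Of the genes of this chromosome with H3K4me3 in wt+TNFα, 89.1% also had H3K27me3, against 12.7% on the autosomes. The labels do not give the sex or the animal of either culture, and each mark had 1 library per condition, so the treatment and the culture cannot be told apart in this difference, and its part in the autosomal results, which leave the chromosome out, was not tested.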

How the results depend on the processing

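The number of genes with both marks depended most on the definition. Over all gene types it was 1627, and it came to 2151 with promoters of 2000 bp on each side, 1019 with the transcript start itself under each mark, 1034 where the peaks had to overlap each other inside 1 promoter, 493 with at least 50% of 1 promoter under each mark, and 298 with only the peaks whose −log10 q exceeded their list's median. All of the 298 were among the 1627. Genes of all types with H3K27me3 only numbered 9343, and 5656 with H3K27me3 peaks of −log10 q of at least 2. Genes with H3K4me3 only numbered 11724, and 7620 under the rule on the list's median −log10 q. By construction, counting protein-coding genes alone gave 4326 with H3K27me3 only and 5546 with neither mark, out of 9343 and 28535. Leaving out genes in stretches of at least 1.5 Mb without a listed peak, an alternative chosen after seeing the data like those of overlapping peaks, longer sequence windows and genes with 1 annotated start, lowered the genes with neither mark to 23004. All other counts over all genes stayed within 1.5 times the main value. Short lists moved more. With the start itself under the mark, absorptive colonocyte genes with H3K4me3 only went from 7 to 3, transcription factor genes with both marks from 17 to 10, and machinery genes with both from 5 to 2. With H3K27me3 peaks of −log10 q of at least 2, olfactory and vomeronasal receptor, β-defensin and keratin-associated protein genes with H3K27me3 only went from 159 to 48, and unmarked channel and neurotransmitter receptor genes from 34 to 53. With 2000 bp on each side, Polycomb and Trithorax genes with both went from 4 to 7.

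Under every setting tried for them, H3K4me3 peaks were narrower at genes with both marks than at those with H3K4me3 only, with ratios of the medians from 0.566 to 0.636. For H3K27me3 the ratio of both to H3K27me3 only ran from 0.682 to 0.897. The CpG ratio at the 5′ end was higher with both marks than with H3K27me3 only by 0.243 to 0.339, and by 0.260 in windows of 1000 bases on each side. H3K27me3 5 kb upstream minus that 5 kb downstream was 9.98 percentage points at genes with both marks and −4.38 among those with 1 annotated start, a change of direction. With H3K27me3 only it went from −9.48 to −4.96 points, and with H3K4me3 only from 8.48 to 6.41. Depth, which the peak lists do not give, limits what the state without marks can mean. No paired analysis was possible because the labels carry no replicate number and every group holds a single library. No replicate could be left out for the same reason.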
